A study of Mus musculus with 6 samples.

Results

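Rab proteins are small GTPases that mark the membranes of the secretory and endocytic pathways. The mRNA levels of their genes were read in mouse bladder tumor organoids, which are cultures of tumor cells grown in 3 dimensions. Members were chosen by annotation and name: protein-coding genes whose symbol is Rab followed by a number and at most 1 letter. This gave 59 genes of 51912 IDs in the table. A mean of at least 1 TPM over the 6 libraries was required for tests, which 35 of the 59 reached, among 9287 genes tested. The organoids came from C57BL/6 mice, and bulk RNA was sequenced. Of 6 libraries, 3 came from organoids given SRT1720, a compound sold as a SIRT1 activator, and 3 from organoids given vehicle. The labels used here state no dose, time or age. They do not say whether replicates were grown separately, so the p-values cover only the spread among these libraries, whose source is not given. Values are listed in the order of replicates 1, 2 and 3 of each group, in TPM (transcript abundance scaled for length and depth) as deposited, and ± is the SD over n = 3 libraries. Log2 differences are SRT1720 minus Vehicle in log2(TPM + 1), a scale that shrinks the change of genes with low levels.

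A Rab protein cycles between a GTP-bound form on a membrane, where it binds effectors such as tethers and motors, and a GDP-bound form held in the cytosol. Exchange factors load GTP, GTPase-activating proteins end the cycle, and lipid groups on cysteines at the end of the protein hold it in the membrane. In umbrella cells of the bladder lining, Rab8a, Rab11a and Rab27b are known for delivering fusiform vesicles to the apical surface. Paralogues often share a route, so the results below are ordered by route and compare paralogues within it.

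The coding ends of the paralogues that the results turn on are shown because the family carries its membrane anchor there. Each run is the last 60 bases of the longest annotated coding sequence (GENCODE M21 on GRCm38), 5′ to 3′ with the stop codon, and capitals mark in-frame cysteine codons.
Rab6a: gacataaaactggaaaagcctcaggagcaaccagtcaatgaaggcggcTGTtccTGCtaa
Rab6b: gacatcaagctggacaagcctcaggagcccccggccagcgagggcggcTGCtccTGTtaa
Rab1a: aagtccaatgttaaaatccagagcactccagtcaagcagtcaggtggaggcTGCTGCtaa
Rab1b: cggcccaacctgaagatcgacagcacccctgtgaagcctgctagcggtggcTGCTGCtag
Rab5a: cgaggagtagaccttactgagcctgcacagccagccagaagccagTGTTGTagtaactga
Rab5b: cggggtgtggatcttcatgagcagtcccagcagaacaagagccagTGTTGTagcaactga
Rab5c: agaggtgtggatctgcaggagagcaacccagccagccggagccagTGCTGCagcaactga
Rab11a: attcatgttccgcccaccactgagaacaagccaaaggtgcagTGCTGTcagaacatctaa
Rab11b: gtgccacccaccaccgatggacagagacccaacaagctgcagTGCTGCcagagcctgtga
Rab35: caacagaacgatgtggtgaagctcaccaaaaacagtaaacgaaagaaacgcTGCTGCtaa
Rab8a: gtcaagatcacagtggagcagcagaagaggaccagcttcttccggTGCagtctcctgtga
All shown but Rab8a hold a pair of cysteine codons, side by side or 1 codon apart, and Rab8a holds 1. The pair stands right before the stop codon in Rab6a, Rab6b, Rab1a, Rab1b and Rab35, 2 codons before it in the Rab5 genes and 3 codons before it in Rab11a and Rab11b. Rab6a and Rab6b, both with coding sequences of 627 bases, were 78.5% identical over the coding sequence, with no identical run above 14 bases. Rab1a and Rab1b were 76.1% identical with a longest run of 38 bases, Rab11a and Rab11b 75.0% with 14 bases, and Rab5a and Rab5b 74.1% with 35 bases.

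The libraries held epithelial cells by their markers and differed strongly within each group. All 6 epithelial markers, among them Epcam and Cdh1, had a mean of at least 1 TPM, against 0 of 9 fibroblast, 0 of 7 endothelial and 0 of 6 smooth muscle markers. In single libraries the fibroblast marker Dcn reached 1.62 TPM in SRT1720 2 and 2.62 TPM in Vehicle 1. The smooth muscle marker Acta2 reached 4.26 TPM in Vehicle 3. Of 9 leukocyte markers 3 did (Cd14, Cd68 and Lyz2), and the list summed to 2.08 to 27.8 TPM with SRT1720 and 4.34 to 25.0 TPM with vehicle. Cd3e was at 0 in all 6 libraries and Ptprc at or near 0, while Cd68, a macrophage marker, was 1.31, 0.7297 and 1.03 TPM with SRT1720 and 1.45, 1.92 and 3.09 TPM with vehicle, without overlap. The part of the Cd68 difference in the Rab values was not tested. All 9 basal and 7 of 12 luminal urothelial markers had a mean of at least 1 TPM, and Upk3a, a uroplakin of umbrella cells, was at 0 in all 6 libraries. Krt5, a basal keratin, was low in SRT1720 1 and Vehicle 2 (16.4 and 9.61 TPM) and at 425 to 1120.1 TPM in the others. Cldn7, a tight junction gene, was low in SRT1720 2 and Vehicle 1 (0.1704 and 0.207 TPM) and at 13.3 to 21.9 TPM in the others. Each group thus held 1 library of each kind, and in the fits, which pair no libraries by kind, this difference counts as spread within groups. The reads recovered per library numbered 18248722 to 22837770, and the smallest count behind any tested Rab value was 79 reads.

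Over the 6 libraries the summed level of all 59 genes was 324 TPM, with 332, 305 and 312 TPM in SRT1720 1, 2 and 3 and 331, 313 and 349.8 TPM in Vehicle 1, 2 and 3. The groups overlapped and did not differ beyond their spread (exact two-sided permutation p = 0.4). By route, members listed under endoplasmic reticulum to Golgi and Golgi, Rab18 among them, held 36.6% of the sum. They are called Golgi members below. Recycling and polarised delivery held 27.0%, early endosome 25.3% and late endosome or lysosome 8.31%. Rab2a, Rab18, Rab10 and Rab1b were the highest by mean, between 25.1 and 28.1 TPM, and together held 32.4%. These neighbours in the order do not differ beyond their spread over libraries. The order also depends on gene lengths: the length behind the deposited values was 0.329 to 2.90 times the annotated exon length of the 35 tested members and equal to it in 4. Per annotated exon length, 7 of the 10 highest members stayed among the 10 highest and Rab5c and Rab1a led, an alternative chosen after the lengths were seen. Ratios of TPM between libraries within a gene do not depend on its length, but differences in log2(TPM + 1) and the filter at 1 TPM do. Per annotated exon length Rab29, which was not tested, came above Rab33b and Rab6b, which were.

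At the filter, Rab33b, Rab40c and Rab6b lay just inside, with means over 6 libraries of 1.26, 1.21 and 1.15 TPM. Rab13, Rab29 and Rab7b lay just outside, at 0.942, 0.898 and 0.739 TPM. Rab6b passed only through its Vehicle libraries, so it had to differ to be tested, and it was already known from these data as one of the genes with the smallest p. It is therefore described, and nothing is read from its p.

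No Rab gene passed limma's test adjusted over all genes (0 of 35, where 0.0% of all genes passed). At an unadjusted p under 0.05 there were 2 members, Rab6b and Rab5b, both lower with SRT1720, or 5.71% of members, against 12.4% of all genes in either direction and 4.55% lower. The groups did not overlap in 7 members, or 20% against 19.9% of all genes, which is the background. By direction, 5 were lower with SRT1720 (14.3%, background 7.75%) and 2 higher (5.71%, background 12.1%). Without Rab6b, 1 of 34 members had an unadjusted p under 0.05. Where both group means had to reach 1 TPM, a filter chosen after the values were seen, 4 of 34 members were lower without overlap (11.8%, against 7.5% of 8762 genes). With columns rescaled to the same sum Rab1a and Rab40c overlapped, which left 3 lower (8.57%, against 6.6% of all genes). In each of the 7 the exact two-sided permutation p was 0.1, the smallest that 3 libraries against 3 can give. The median log2 difference over the 35 was −0.07, with 15 above 0 and 20 below, and over all genes 0.04, with 54.8% above 0. With median-of-ratios scaling 24 of 35 were below 0 and the median was −0.12, and the same count was below 0 with quantile normalization. In bulk RNA, fewer cells of a type and less RNA per cell cannot be told apart.

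**Figure D1:**
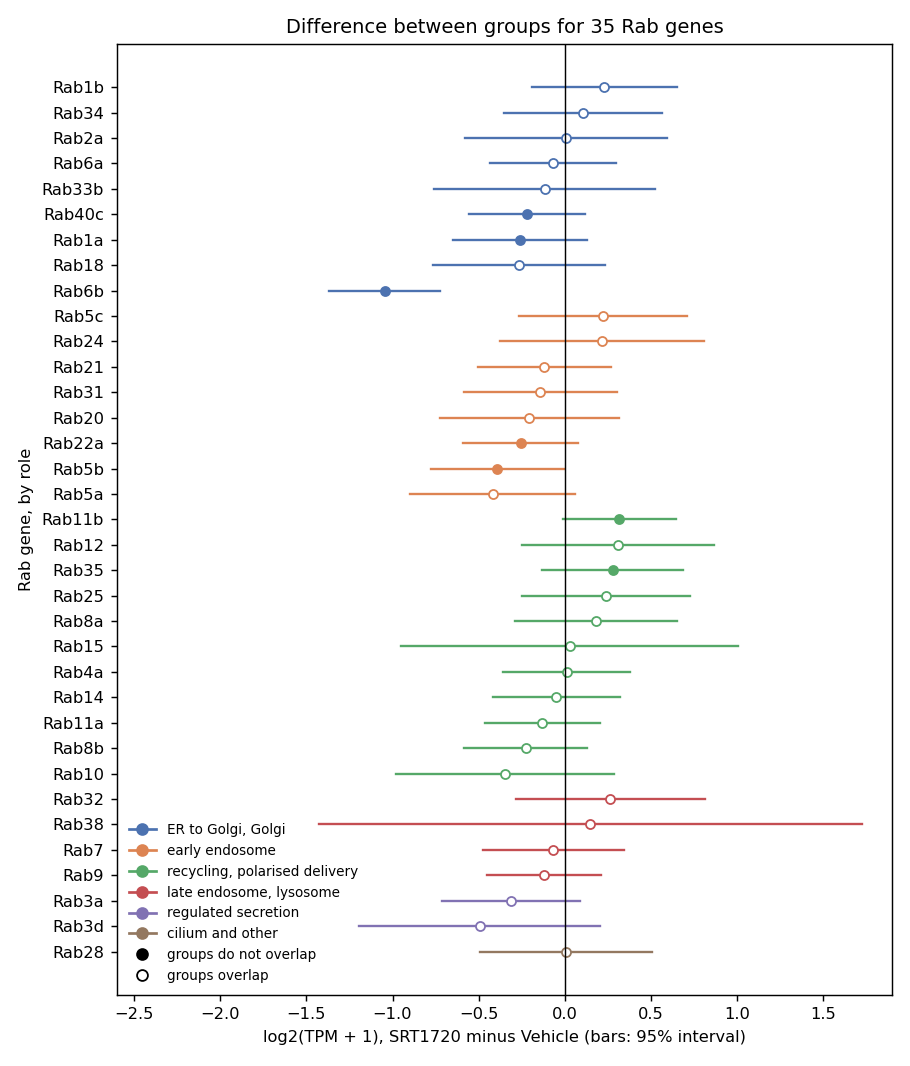
Difference in log2(TPM + 1), SRT1720 minus Vehicle, for the 35 tested Rab genes by role, with bars for the 95% interval of the limma fit; filled points mark genes whose 3 and 3 libraries do not overlap. Rab6b lies at −1.05, apart from the others, which lie between −0.50 and 0.31. It passed the filter only through its Vehicle libraries, so its interval is not read.

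Among Golgi members, Rab6b stood out and its paralogue Rab6a did not. Rab6b, a Rab6 isoform known for its high level in neurons, was at 0.336, 0.559 and 0.326 TPM in the SRT1720 libraries against 1.698, 1.98 and 2.02 TPM in the Vehicle libraries. All 3 SRT1720 libraries were below all 3 Vehicle libraries, with a gap wider than the range within either group. The means were 0.407 ± 0.132 against 1.901 ± 0.177 TPM, a ratio of 0.214. The values rest on 102, 177 and 101 recovered reads with SRT1720 and 562, 525 and 585 with vehicle. Rab6b had to differ between groups to be tested, so its SE and interval are not read either. The log2 difference was −1.05. It was −2.01 with a pseudocount of 0.1 and −2.26 by voom on recovered reads, since a pseudocount of 1 compresses low values. Without SRT1720 1 and Vehicle 2, the low-Krt5 libraries, it was −0.99, and without SRT1720 3 and Vehicle 3 it was −0.97.

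Rab6a, which drives traffic at the Golgi and back to the endoplasmic reticulum, was at 15.8, 13.6 and 15.7 TPM in the SRT1720 libraries against 15.1, 15.9 and 16.4 TPM in the Vehicle libraries. The groups overlapped, and the highest library was 1.204 times the lowest, the narrowest range among the tested members. Its log2 difference was −0.07 (SE 0.15), with a 95% interval of −0.43 to 0.29. The ratio of Rab6b to Rab6a was 0.0212, 0.04102 and 0.0208 with SRT1720 and 0.112, 0.124 and 0.123 with vehicle. Rab6b was thus the minor isoform in all 6 libraries, and its share was lower in each SRT1720 library than in each Vehicle library.

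The start region of both Rab6 genes is shown because Rab6b carries the widest gap in the family. Each run covers 250 bases before to 50 after the start in RefSeq (GRCm38.p6), 5′ to 3′ on the plus strand, and capitals mark the GC box GGGCGG or its reverse CCGCCC. Rab6b is at chr9:103111824-103112123 and Rab6a at chr7:100607336-100607635. The GENCODE bounds start elsewhere. Those of Rab6b start at 103111787, so its whole window lies inside the gene. Those of Rab6a start at 100607410, inside its window. The windows are therefore not upstream sequence alone.
Rab6b: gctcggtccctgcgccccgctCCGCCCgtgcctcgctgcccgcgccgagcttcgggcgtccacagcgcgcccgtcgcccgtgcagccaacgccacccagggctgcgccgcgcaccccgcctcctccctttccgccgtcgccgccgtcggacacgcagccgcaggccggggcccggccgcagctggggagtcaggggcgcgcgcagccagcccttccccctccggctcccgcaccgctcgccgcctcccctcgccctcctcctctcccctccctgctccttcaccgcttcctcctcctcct
Rab6a: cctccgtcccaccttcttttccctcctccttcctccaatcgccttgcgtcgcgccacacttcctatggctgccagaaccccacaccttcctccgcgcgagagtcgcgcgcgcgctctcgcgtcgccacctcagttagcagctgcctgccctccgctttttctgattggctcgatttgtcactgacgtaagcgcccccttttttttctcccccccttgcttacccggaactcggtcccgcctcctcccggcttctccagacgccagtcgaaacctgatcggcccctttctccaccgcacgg
The Rab6b window was 78.7% G or C with 1 GC box, and the Rab6a window 62.7% with 0. Of the 35 tested members, 31 matched the RefSeq table, with 37 windows. On either strand GGGCGG was found in 26 of these 37 (70.3%), against 35.6% of all 32817 windows. The E-box CACGTG was found in 4 (10.8%, against 7.15%), CCAAT in 16 (43.2%, against 37.4%) and TATAAA in 1 (2.70%, against 13.6%). The windows of members are of genes that passed the filter, while all windows were taken whether or not their gene did. The shares are therefore not of like sets, and no trait of Rab genes is read from them. None of these 4 motifs contains another. A match is a description of letters and not a bound site.

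Rab1a and Rab1b, which act between the endoplasmic reticulum and the Golgi, lay on opposite sides of 0. Rab1a was at 14.2, 13.9 and 12.7 TPM in the SRT1720 libraries against 15.8, 18.8 and 15 TPM in the Vehicle libraries, and all SRT1720 libraries were below all Vehicle libraries by a narrow margin. Its log2 difference was −0.26 (SE 0.16) with a limma adjusted p = 0.559, and it was −0.17 without Vehicle 2. With columns rescaled to the same sum the groups overlapped. Rab1b was at 30.99, 28.1 and 22.8 TPM in the SRT1720 libraries against 23.2, 23.7 and 21.97 TPM in the Vehicle libraries, with overlap at SRT1720 3 and a log2 difference of 0.23 (SE 0.18). The ratio of Rab1a to Rab1b was 0.457, 0.496 and 0.554 with SRT1720 and 0.682, 0.791 and 0.683 with vehicle, without overlap. The ratios of Rab5a to Rab5c (1.01, 0.771 and 0.649 with SRT1720 and 1.29, 1.85 and 0.865 with vehicle) and of Rab8b to Rab8a (0.278, 0.532 and 0.394 and 0.696, 0.399 and 0.615) overlapped between groups. The paralogue ratios were chosen after the values were seen and are given as description.

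The other Golgi members did not separate the groups, apart from Rab40c. Rab40c, which carries a SOCS box that binds ubiquitin ligase subunits, was at 1.08, 1.08 and 0.958 TPM in the SRT1720 libraries against 1.101, 1.68 and 1.37 TPM in the Vehicle libraries. The margin between SRT1720 2 and Vehicle 1 was small, and the log2 difference was −0.22 (SE 0.14), and −0.13 without Vehicle 2. Its groups, too, overlapped with columns rescaled to the same sum. The pseudogene Gm10012 overlaps Rab40c on the opposite strand at a mean of 1.45 TPM, and whether counting used strand is not given in the sources used here. Rab18, known from lipid droplets and the endoplasmic reticulum, was at 23.3 ± 3.09 against 28.4 ± 5.39 TPM, and Rab2a at 27.8 ± 1.98 against 28.5 ± 8.53 TPM. Rab34 was at 3.94 ± 0.569 against 3.63 ± 0.925 TPM, and Rab33b, a Golgi Rab that binds the autophagy factor Atg16l1, at 1.19 ± 0.679 against 1.33 ± 0.458 TPM. All of these overlapped between groups. Rab2a has a pseudogene copy, Gm5865, at a mean of 8.02 TPM.

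In the early endosome group, Rab5a and Rab5b were lower with SRT1720 by mean and Rab5c was not. These isoforms are known for driving fusion of early endosomes. Rab5b was at 6.87, 8.304 and 7.195 TPM in the SRT1720 libraries against 10.2, 8.89 and 11.2 TPM in the Vehicle libraries. The groups did not overlap, and the log2 difference was −0.39 (SE 0.16) (limma adjusted p = 0.398). The pseudogene Gm13991, 99.4% identical to the Rab5b coding sequence over 648 bases, was at 6.14, 7.09 and 6.696 TPM in the SRT1720 libraries against 9.87, 9.198 and 10.3 TPM in the Vehicle libraries, so reads may be split between them. Summed over both, levels were 13.01, 15.4 and 13.9 TPM with SRT1720 and 20.1, 18.1 and 21.6 TPM with vehicle, again without overlap.

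Rab5a was at 19.5, 14.7 and 14.3 TPM in the SRT1720 libraries against 22.1, 25.1 and 18.5 TPM in the Vehicle libraries. SRT1720 1 lay above Vehicle 3, so the groups overlapped, and the log2 difference was −0.42 (SE 0.20) (limma adjusted p = 0.458). Rab5c was at 19.4, 19.1 and 21.97 TPM in the SRT1720 libraries against 17.2, 13.6 and 21.4 TPM in the Vehicle libraries, with overlap and a log2 difference of 0.22 (SE 0.20). Rab5a and Rab5b together held 57.7, 54.7 and 49.4% of the summed Rab5 level with SRT1720 and 65.3, 71.4 and 58.2% with vehicle. This share did not overlap between groups, although SRT1720 1 and Vehicle 3 lay within 1 percentage point.

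Rab22a, an early endosomal relative of Rab5, was at 1.72, 2.33 and 2.101 TPM in the SRT1720 libraries against 2.89, 2.46 and 2.55 TPM in the Vehicle libraries. The groups did not overlap, and the log2 difference was −0.26 (SE 0.14) with a limma adjusted p = 0.501. Its closest relative Rab31 was at 11.3 ± 1.61 against 12.6 ± 1.94 TPM, Rab21, known for integrin traffic, at 8.21 ± 0.674 against 9.03 ± 1.18 TPM and Rab20 at 2.097 ± 0.664 against 2.55 ± 0.646 TPM. Rab24 was at 10.9 ± 1.73 against 9.41 ± 2.74 TPM, and it overlaps Prelid1 on the opposite strand, whose mean was 93.4 TPM. These 4 overlapped between groups. Of the 8 tested early endosome members 6 had log2 differences below 0, with a median of −0.17, and their route's summed level was 78.4 ± 2.71 against 85.7 ± 6.34 TPM (exact two-sided permutation p = 0.2).

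**Figure D2:**
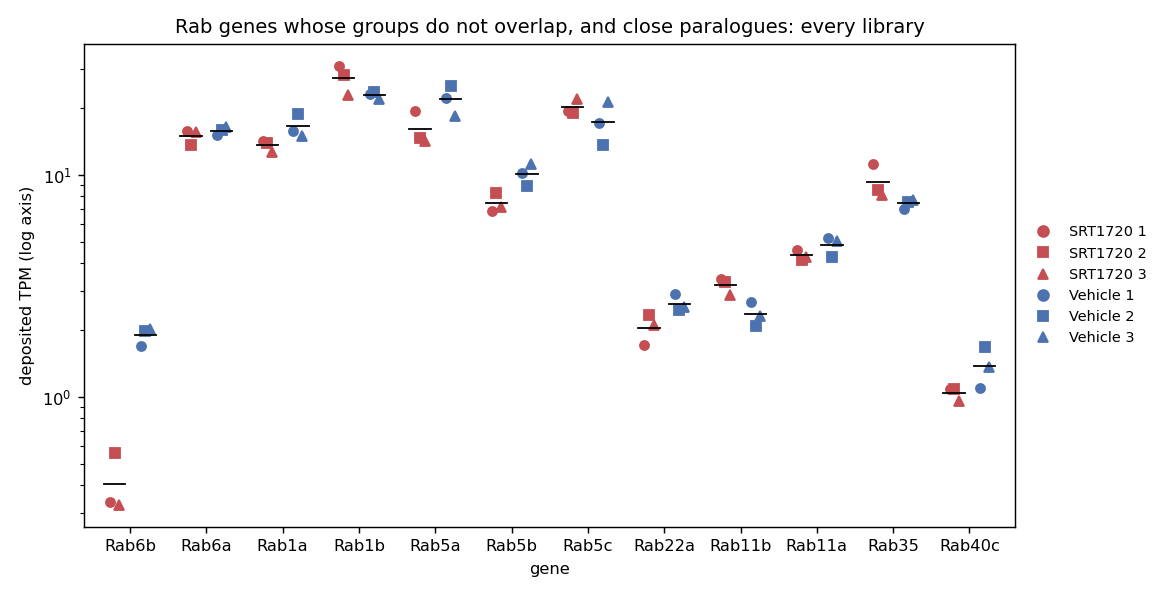
Deposited TPM on a log axis in every library for the 7 Rab genes whose groups do not overlap and for 5 close paralogues; black lines are group means. Rab6b is at 0.326 to 0.559 TPM with SRT1720 and 1.698 to 2.02 TPM with vehicle, while Rab6a lies between 13.6 and 16.4 TPM in all 6 libraries.

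The 2 tested members that were higher with SRT1720 without overlap, Rab11b and Rab35, were both recycling members. They were 2 of 11 tested on this route, and 12.1% of all genes were higher without overlap. With so few genes nothing is read about the route. Rab11b, a GTPase of recycling endosomes, was at 3.398, 3.28 and 2.87 TPM in the SRT1720 libraries against 2.68, 2.096 and 2.32 TPM in the Vehicle libraries. All SRT1720 libraries were above all Vehicle libraries, and the log2 difference was 0.31 (SE 0.14) (limma adjusted p = 0.412). Its processed pseudogene Rab11b-ps2, 99.8% identical over 654 coding bases, was higher than the gene itself, at 19.1, 18.4 and 15.1 TPM in the SRT1720 libraries against 17.95, 14.6 and 12.8 TPM in the Vehicle libraries. Summed over gene and copy the groups overlapped, at 22.5, 21.7 and 17.95 TPM with SRT1720 and 20.6, 16.7 and 15.1 TPM with vehicle. The level of Rab11b is therefore uncertain where reads could be assigned to either.

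Rab11a was at 4.57, 4.15 and 4.28 TPM in the SRT1720 libraries against 5.23, 4.28 and 5.06 TPM in the Vehicle libraries, with overlap at Vehicle 2 and a log2 difference of −0.13 (SE 0.14). The ratio of Rab11b to Rab11a was 0.743, 0.789 and 0.6696 with SRT1720 and 0.513, 0.4899 and 0.458 with vehicle, without overlap. Rab25, an epithelial relative of Rab11, was at 20.8, 15.3 and 16.7 TPM in the SRT1720 libraries against 12.01, 17.3 and 15.1 TPM in the Vehicle libraries, which overlapped.

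Rab35, which acts in rapid recycling and in the last step of cell division, was at 11.2, 8.57 and 8.11 TPM in the SRT1720 libraries against 7.03, 7.58 and 7.705 TPM in the Vehicle libraries. The groups did not overlap, with SRT1720 1 well above the rest, and the log2 difference was 0.28 (SE 0.17) (limma adjusted p = 0.556). Without SRT1720 1 it was 0.15. Rab8a and Rab10, which carry vesicles to the plasma membrane, gave 6.77 ± 1.101 against 5.899 ± 1.297 TPM for Rab8a and 22.5 ± 5.42 against 28.8 ± 6.699 TPM for Rab10. Rab8b was at 2.63 ± 0.469 against 3.23 ± 0.2805 TPM, Rab12 at 5.39 ± 0.876 against 4.25 ± 1.31 TPM and Rab14 at 4.01 ± 0.572 against 4.18 ± 0.461 TPM. Rab4a was at 1.79 ± 0.444 against 1.75 ± 0.0973 TPM and Rab15 at 8.63 ± 3.08 against 8.899 ± 4.35 TPM, and all of these overlapped. Rab10 overlaps the antisense gene Rab10os (mean 0.947 TPM) and Rab15 overlaps Fntb (mean 1.59 TPM), both on the opposite strand. Of 11 tested members on this route 7 were above 0, with a median log2 difference of 0.03.

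**Figure D3:**
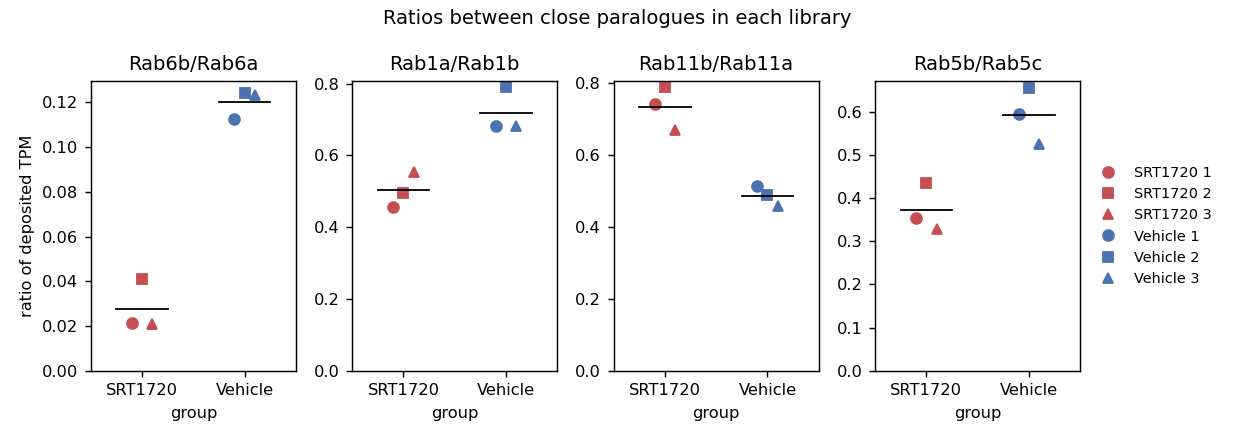
Ratio of deposited TPM between close paralogues in each library, from 0 on each axis, with black lines for group means. In all 4 pairs the 3 SRT1720 libraries lie apart from the 3 Vehicle libraries; the pairs were chosen after the values were seen, and the ratios of Rab5a to Rab5c and Rab8b to Rab8a, not plotted, overlapped.

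Late endosomal and lysosomal members did not separate the groups. Rab7, which brings late endosomes to lysosomes, was at 13.1, 10.3 and 9.96 TPM in the SRT1720 libraries against 11.3, 12.8 and 10.9 TPM in the Vehicle libraries, with a log2 difference of −0.07 (SE 0.17) and a 95% interval of −0.48 to 0.34. Its processed pseudogene Rab7-ps1 was at a mean of 16.2 TPM, above the gene's 11.4 TPM. Rab9, which acts from late endosomes to the Golgi, was at 4.305 ± 0.247 against 4.78 ± 0.479 TPM and Rab32, known from melanosomes, at 6.07 ± 1.56 against 4.88 ± 1.19 TPM. Of the secretory Rab3 genes, Rab3a was at 0.998, 1.35 and 0.988 TPM with SRT1720 and 1.796, 1.95 and 1.17 TPM with vehicle and Rab3d at 0.993, 1.45 and 2.58 TPM with SRT1720 and 2.88, 1.65 and 3.76 TPM with vehicle. Both had lower means with SRT1720 and overlapping libraries, and their limma adjusted p was 0.495 and 0.538. Rab3a overlaps Mpv17l2 (mean 4.64 TPM) on the opposite strand. Rab28, a Rab of cilia, was at 3.79 ± 0.736 against 3.81 ± 0.987 TPM.

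Several members differed between kinds of library within each group. Rab38, a relative of Rab32, was at 1.13, 3.42 and 7.27 TPM in the SRT1720 libraries against 3.06, 0.777 and 6.98 TPM in the Vehicle libraries. It was lowest in the low-Krt5 libraries SRT1720 1 and Vehicle 2 and highest in SRT1720 3 and Vehicle 3, a range of 9.36-fold, the widest among the tested members. In Rab15, SRT1720 1 and Vehicle 2 were instead the highest, at 11.98 and 12.6 TPM, and SRT1720 2 and Vehicle 1 the lowest, at 5.92 and 4.12 TPM. Both SRT1720 1 and Vehicle 2 were below the other 4 libraries in 5 members (14.3%, background 12.3%) and above them in 6 (17.1%, background 16.2%). SRT1720 3 and Vehicle 3 were below in 5 (14.3%, background 16.8%) and above in 3 (8.57%, background 11.0%). For SRT1720 2 and Vehicle 1 the counts were 4 below (11.4%, background 6.6%) and 0 above (0.0%, background 7.9%). Library kinds were named from the values of Krt5 and Cldn7, so these counts are a description.

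Over 407 tested genes on chromosome 3, the median deviation from the group mean was −0.39 (log2) in SRT1720 3 and −0.41 in Vehicle 3, and 0.13 to 0.26 in the other 4 libraries. Rab33b lies on chromosome 3 and was at 1.89, 1.16 and 0.535 TPM in the SRT1720 libraries against 1.48, 1.702 and 0.822 TPM in the Vehicle libraries. It was lowest in SRT1720 3 and Vehicle 3. Rab13, below the filter, was at 0.933 TPM in SRT1720 3 and 0.5898 TPM in Vehicle 3, the lowest library of each group. Rab25, also on chromosome 3, was not lowest there, and the part of the chromosome in these values was not tested.

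**Figure D4:**
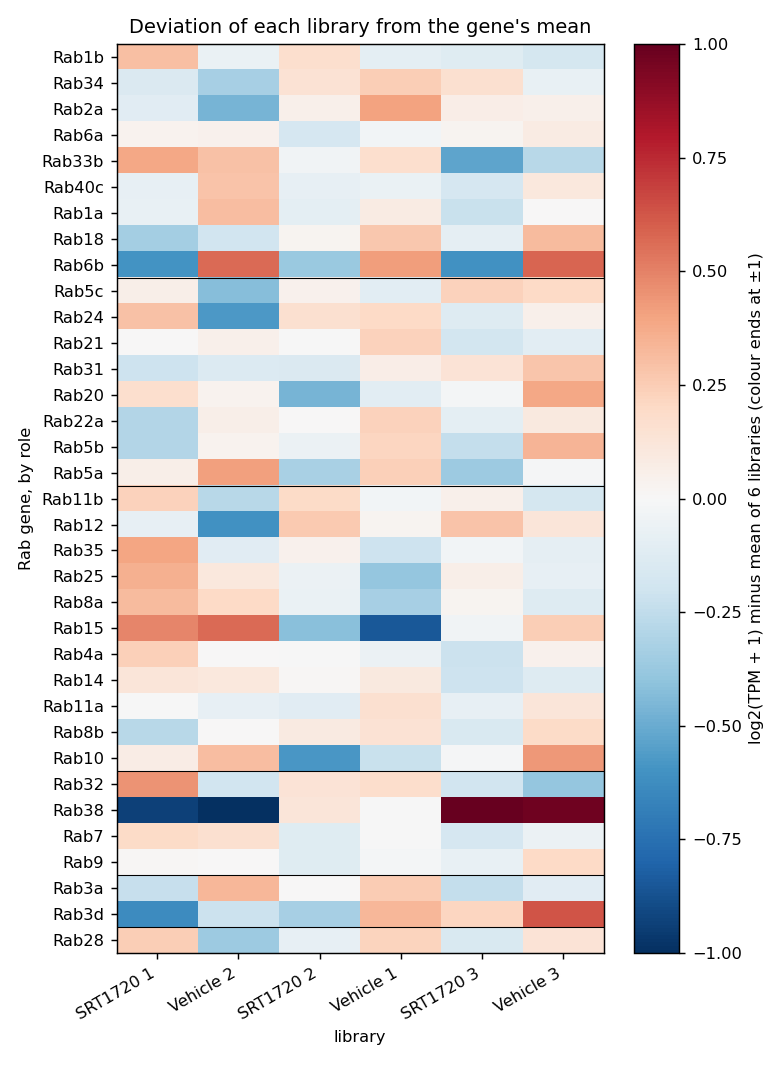
Deviation of log2(TPM + 1) from the gene's mean over 6 libraries for the 35 tested Rab genes, in rows by role, with libraries of like Krt5 and Cldn7 level side by side; the colour ends at ±1. Rab38 is low in SRT1720 1 and Vehicle 2 and high in SRT1720 3 and Vehicle 3, while Rab6b alternates with the treatment.

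The 24 members below the filter held 1.81% of the family's summed level, and 13 had means under 0.1 TPM. Rab27b, the Rab of fusiform vesicles, was at 0.834, 0.479 and 0.738 TPM with SRT1720 and 0.301, 0.317 and 0.567 TPM with vehicle, and Rab27a at 0.189, 0.84 and 0.252 TPM with SRT1720 and 0.516, 0.137 and 0.441 TPM with vehicle. Rab23, a regulator of Hedgehog signalling, was at 0.554, 0.641 and 0.561 TPM with SRT1720 and 0.371, 0.434 and 0.423 TPM with vehicle, and Rab40b at 0.187, 0.186 and 0.147 TPM with SRT1720 and 0.264, 0.215 and 0.269 TPM with vehicle. Rab23 was higher and Rab40b lower with SRT1720 without overlap, and Rab27a and Rab27b overlapped. Rab40b rests on 24 to 46 recovered reads per library. The share of all genes below the filter without overlap was not counted, so nothing is read from Rab23 and Rab40b. Rab7b and Rab29 ranged from 0.152 to 2.07 TPM and from 0.159 to 1.29 TPM.

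Of 167 listed regulators, effectors and Rab-like genes 100 were tested, with a median log2 difference of 0.01, and 0 passed the adjusted test. The groups did not overlap in 7 with higher and 15 with lower levels under SRT1720 (7.0% and 15.0%), beside backgrounds of 12.1% and 7.75%. With columns rescaled to the same sum these were 7 and 12 of 100, beside 13.3% and 6.6% of all genes. Where both group means had to reach 1 TPM, 7 of 94 were higher without overlap (7.45%) and 12 lower (12.8%). Of all such genes 11.7% were higher and 7.5% lower. In the list of membrane delivery and prenylation, 5 of 7 tested genes were below 0, with a median of −0.24, beside 4194 of all 9287 genes. Without overlap 3 were lower (42.9%, background 7.75%) and 0 higher (background 12.1%). With columns rescaled to the same sum 2 of 7 were lower (28.6%, against 6.6% of all genes). With 7 genes nothing is read about the list. Rabac1, a membrane receptor for prenylated Rab proteins, was at 9.85, 7.19 and 10.5 TPM in the SRT1720 libraries against 12.2, 20.4 and 19.96 TPM in the Vehicle libraries. Pde6d, a carrier of prenylated proteins, was at 2.73, 2.5 and 2.702 TPM with SRT1720 and 4.097, 3.49 and 4.14 TPM with vehicle. In both genes every SRT1720 library was below every Vehicle library, with limma adjusted p values of 0.321 and 0.331.

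Among exchange factors 5 of 32 tested genes were higher without overlap (15.6%, background 12.1%) and 4 lower (12.5%, background 7.75%), with a median log2 difference of 0.04. Where both group means had to reach 1 TPM, 5 of 31 were higher (16.1%, against 11.7% of all such genes) and 3 lower (9.68%, against 7.5%). Sbf2, which holds a DENN domain, was at 0.823, 0.865 and 1.05 TPM in the SRT1720 libraries against 2.16, 1.64 and 2.14 TPM in the Vehicle libraries. Its groups did not overlap, with a log2 difference of −0.64 (SE 0.14), but like Rab6b it passed the filter only through its Vehicle libraries, and nothing is read from its test. Trappc9, a subunit of a TRAPP complex, was at 1.63 ± 0.3599 against 2.65 ± 0.508 TPM. Higher with SRT1720 were Ccz1, part of the exchange factor for Rab7, at 4.85 ± 0.6301 against 3.4 ± 0.562 TPM, and Rin2, an exchange factor for Rab5, at 1.75 ± 0.327 against 1.15 ± 0.192 TPM. The exchange factors named thus lay on both sides.

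Of 25 tested GTPase-activating proteins 0 were higher without overlap (background 12.1%) and 4 lower (16.0%, background 7.75%), with a median log2 difference of −0.01. Tbc1d15, which acts on Rab7, was at 4.15 ± 0.8399 against 6.82 ± 1.996 TPM. Tbc1d16 was at 0.732 ± 0.3203 against 1.61 ± 0.408 TPM and Sgsm2 at 0.671 ± 0.277 against 1.55 ± 0.468 TPM. Each was lower in every SRT1720 library than in every Vehicle library, but Tbc1d16 and Sgsm2 passed the filter only through their Vehicle libraries. Among genes with both group means of at least 1 TPM, 2 of 22 were lower without overlap (9.09%, against 7.5% of all such genes). The limma adjusted p of Tbc1d15 was 0.379. Among 32 tested effectors 1 was higher without overlap (3.12%, background 12.1%) and 4 lower (12.5%, background 7.75%), with a median of −0.04, and the higher one was Rufy1, which binds Rab4 and Rab14, at 1.504 ± 0.0896 against 1.04 ± 0.0709 TPM. Of 4 tested Rab-like genes 1 was higher without overlap (background 12.1%), too few to read. It was Ift27, a GTPase of transport in cilia, at 6.74 ± 0.362 against 4.67 ± 0.998 TPM (limma adjusted p = 0.374).

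On GRCm38, with GENCODE M21 bounds, the protein-coding members whose groups did not overlap lie as follows. On the plus strand are Rab6b (ENSMUSG00000032549) on chromosome 9 from 103111787 to 103185276, Rab1a (ENSMUSG00000020149) on chromosome 11 from 20201432 to 20226856, Rab22a (ENSMUSG00000027519) on chromosome 2 from 173659760 to 173707343 and Rab35 (ENSMUSG00000029518) on chromosome 5 from 115631908 to 115647736. On the minus strand are Rab5b (ENSMUSG00000000711) on chromosome 10 from 128677175 to 128696264, Rab11b (ENSMUSG00000077450) on chromosome 17 from 33742484 to 33760530 and Rab40c (ENSMUSG00000025730) on chromosome 17 from 25882114 to 25919727. The values are gene totals, so they do not tell exons or transcripts apart.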

How the data were processed

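Bulk RNA from 6 mouse bladder tumor organoid libraries, 3 given SRT1720 and 3 given vehicle, was analysed from 1 table with a column for each library. The deposited values are TPM computed by the authors; the submitters' processing notes name STAR 2.6.0 and GRCm38, and the sources used here do not give the annotation, strandedness or quantifier. Column sums were 161231 to 171577, below the usual total of TPM, and what the rest covers is not given in the sources used here. Gene lengths and the value of a read were inferred from the table, as those at which a gene's values in all 6 libraries came out as whole reads (tolerance 0.01 reads, lengths up to 250000 bases), which gave a length for all 27713 IDs above 0 and, as an estimate, recovered reads of 18248722 to 22837770 per library. No replicate pair was a duplicate (median chi-square over genes 18.2 to 42.8).

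Genes averaging 1 TPM or more were tested with limma 3.58.1 (R 4.3.3), with trend, on log2(TPM + 1) over all 6 libraries without covariates, two-sided, with Benjamini-Hochberg adjustment over 9287 genes and a threshold of 0.05. Exact permutation tests compared single values. The fit was tested on simulated data. Of 51912 IDs, 51719 matched GENCODE M21. Coding sequences were compared with BLAST 2.17.0, and copies needed 85% identity over 50% of the coding sequence. Alternatives covered the pseudocount (0.1), filters (none, mean of at least 5), scaling, voom on recovered reads, library weights, a replicate block and libraries left out.

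The members and lists were chosen with earlier results of these data known. Named were members with an unadjusted p under 0.05 or without overlap, their closest paralogues, the genes at either side of the filter, and listed pathway genes with the smallest p among those without overlap, of which 1 is not reported here. Paralogue ratios, chromosome 3 and the members named for following library kinds were chosen after values were seen.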

Additional observations from a re-analysis of the deposited data

How the results depend on the processing

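No alternative gave a gene an adjusted p under 0.05, in 18 alternatives with 498 to 2056 genes at an unadjusted p under 0.05. The median log2 difference of the Rab members (−0.07) was −0.0018 without a filter, −0.13 with library weights and −0.16 without SRT1720 1 and Vehicle 2, and −0.15 to −0.027 with 1 library left out. That of the pathway genes (0.01) was −0.039 at a mean of at least 5, −0.032 with median-of-ratios scaling and −0.047 without SRT1720 1 and Vehicle 2, and −0.060 to 0.037 with 1 library left out. The 7 members without overlap were 5 with columns rescaled to the same sum, 6 with both group means of at least 1 TPM, 3 at a mean of at least 5, 18 without SRT1720 1 and Vehicle 2 and 14 without SRT1720 3 and Vehicle 3, where fewer libraries make overlap rarer by construction. With 1 library left out they were 9 to 13, with 11 without SRT1720 1, 13 without Vehicle 2 and 11 without Vehicle 3. Of all genes, 19.9% did not overlap with rescaled columns and 19.2% with both group means of at least 1 TPM. For members these shares were 14.3% and 17.6%. In the other settings the share of all genes was not counted, so nothing is read from those member counts. The 2 members at an unadjusted p under 0.05 were 4 of 35 with library weights, where all genes so called rose from 1153 to 2056 of 9287. At a mean of at least 5 there was 1 of 18 members, beside 498 of 3594 genes. Without SRT1720 1 and Vehicle 2 there was 1, beside 1033 genes, and without SRT1720 3 and Vehicle 3 there was 1, beside 682 genes. In both settings it was Rab6b, from whose p nothing is read, and Rab5b was no longer under 0.05. With 1 library left out there were 1 to 3, the 1 being without SRT1720 2, which also left 523 genes. That 1, too, was Rab6b. The cause of these shifts was not tested.

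With the replicate number as a block, 1 of 35 members had an unadjusted p under 0.05, beside 1133 of 9287 genes. That member was Rab6b, from whose p nothing is read, and Rab5b was no longer under 0.05. The numbers do not pair the samples: deviations of same-numbered libraries correlated at −0.20, −0.26 and 0.79 across genes, and SRT1720 1 was most like Vehicle 2 (0.72) and SRT1720 2 most like Vehicle 1 (0.68). Of the 10 highest members, 7 were shared with the order per annotated exon length, chosen after seeing the data. Low counts limit Rab38 most, with 79 reads in Vehicle 2.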
